A study of Mus musculus with 7 samples.

Results

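The oligoadenylate synthetase (OAS) family was followed in bone marrow of mice that lack Aim2 and of wild-type mice. Its members here were the Oas and Oasl genes Oas1a, Oas1b, Oas1c, Oas1g, Oas2, Oas3, Oasl1 and Oasl2, which are 8 of the 35498 genes quantified. Oas1d, Oas1e, Oas1f and Oas1h, also quantified, are not among them and had too few reads to be tested. Messenger RNA was sequenced by strand in whole marrow of female mice, 5 to 6 months old at dissection. There were 3 libraries from the genotype labelled Aim2 knock out, called AIM2 null in the protocol and KO here, and 4 from the genotype labelled WT. The labels give neither the strain nor the deleted part of Aim2, and no treatment is named. Whether the libraries stem from separate mice is not stated, so p-values reflect only the spread among these libraries. Whole marrow holds many cell types, and for every gene here fewer cells of a type and less RNA per cell cannot be told apart.

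OAS enzymes are sensors of double-stranded RNA. Once bound to it, they join ATP into short adenylate chains called 2-5A, which act as a signal inside the cell and lead to the breakdown of viral and cellular RNA. Most of the genes are induced by interferon, through transcription factors that bind the interferon-stimulated response element (ISRE) in their promoters. In the mouse the OAS1 gene has been copied several times, and some copies have lost synthetase activity. The OASL proteins carry ubiquitin-like domains behind the OAS domain. Aim2 encodes a sensor of cytosolic DNA, which is itself inducible by interferon.

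All members lie on chromosome 5 (GRCm38, GENCODE M21). The OAS genes proper form a cluster of 10 genes that spans 191.3 kb (120730333 to 120921652), and Oasl2 and Oasl1 form a pair that spans 41.0 kb (114896936 to 114937915). Oas1c (minus strand, 120800194 to 120812514) and Oas1b (plus strand, 120812635 to 120824163) start back to back, with 120 bases between them. Oas1a (120896256 to 120907521) and Oas1g (120876142 to 120887613) lie on the minus strand, as do Oas2 (120730333 to 120749853) and Oas3 (120753098 to 120777661). Oasl2 (114896936 to 114912234) and Oasl1 (114923240 to 114937915) lie on the plus strand.

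The ISRE core, GAAA followed by any 2 bases and GAAA, was looked for on both strands of RefSeq promoter windows (GRCm38.p6, 250 bases before to 50 after the gene start). It is held by 1131 of 32851 windows of that length in the table, or 3.443%. A total of 6 of the 8 members matched an entry of the table by symbol, and Oas1b and Oas2 had no entry. The 120 bases before the start are printed below in the direction of the gene, with matches to the core in capitals, since the members that differ most in response can be set side by side in them. The Oas1c stretch is also the whole interval between Oas1c and Oas1b.
Oas1a (chr5:120907526-120907645, minus strand): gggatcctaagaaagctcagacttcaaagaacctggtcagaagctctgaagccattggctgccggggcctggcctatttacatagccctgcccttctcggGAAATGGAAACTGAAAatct
Oas1g (chr5:120887614-120887733, minus strand): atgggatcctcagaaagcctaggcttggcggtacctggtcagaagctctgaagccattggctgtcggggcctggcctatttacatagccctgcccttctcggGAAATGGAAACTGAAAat
Oas1c (chr5:120812515-120812634, minus strand): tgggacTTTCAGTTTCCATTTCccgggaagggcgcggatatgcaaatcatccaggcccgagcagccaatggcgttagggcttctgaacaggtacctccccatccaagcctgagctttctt
Oas3 (chr5:120777660-120777779, minus strand): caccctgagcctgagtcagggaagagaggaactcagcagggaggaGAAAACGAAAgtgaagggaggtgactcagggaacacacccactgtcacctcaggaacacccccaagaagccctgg
Oas1a and Oas1g each held 2 overlapping matches, which end 10 and 4 bases before the start in Oas1a and 8 and 2 bases before it in Oas1g. Their windows were 88.78% identical over 294 aligned bases. Oas1c held 2 overlapping matches on the other strand, which end 104 and 98 bases before its start and so read toward Oas1b. Read on that strand, their letters are the same as those of the matches in Oas1a and Oas1g. The Oas1c matches lie at the Oas1b end of the interval, just before the annotated start of Oas1b. Oas3 held 1 match, 65 bases before its start. Oasl1 and Oasl2 held no match in their windows, which says only that these letters are absent there. The gamma-activated site, TTC followed by any 3 bases and GAA and present in 8.298% of all windows, was found only in Oas1a among the 6 windows, and it lies outside the capitals.

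The libraries held 20300468 to 21099972 estimated reads. Levels are in CPM, reads scaled to library size after TMM normalization, and genes were called at a Benjamini-Hochberg adjusted p under 0.05 over 14238 genes in edgeR's quasi-likelihood test. Aim2 was at 7.37, 2.26 and 2.67 CPM in KO libraries 1 to 3, against 32.2, 27.8, 25.9 and 25.5 CPM in WT libraries 1 to 4, so that KO library 1 kept 26.5% of the WT mean on this scale. The log2 fold change of Aim2 was -2.76 (adjusted p = 0.028, SE 0.38), but -1.28 with an offset for effective transcript length and -1.17 on log2(TPM + 0.1), where it did not pass (limma, adjusted p = 0.054). With each library left out in turn the adjusted p was 0.0005 to 0.097, and it was under 0.05 only without KO library 1. The share of reads from haemoglobin genes was 11.3 to 13.7% in KO and 13.8 to 19.9% in WT, and markers of erythroid, neutrophil and B lineage cells were detected in every library. KO library 3 stood apart by skeletal muscle markers, whose summed level was 48.4, 593 and 4818 CPM in KO libraries 1 to 3 and 850.5 to 1733 CPM in WT.

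The OAS family was higher in Aim2 KO marrow, in 6 of 8 members. Oas1a, Oas1g, Oas2, Oas3, Oasl1 and Oasl2 rose between 2.29-fold and 7.52-fold, 0 members fell, and Oas1b and Oas1c did not pass the test. Over all genes tested, 0.646% were called, and 0.478% were called higher in KO. The KO and WT ranges in CPM did not overlap for 7 members, all but Oas1c, and 6.95% of all genes were higher in KO without overlap. The median log2 fold change was 1.60 over the members and -0.01 over all genes. Without KO library 2, 3 members passed, and with the other libraries left out in turn 4 to 6 passed.

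**Figure D1:**
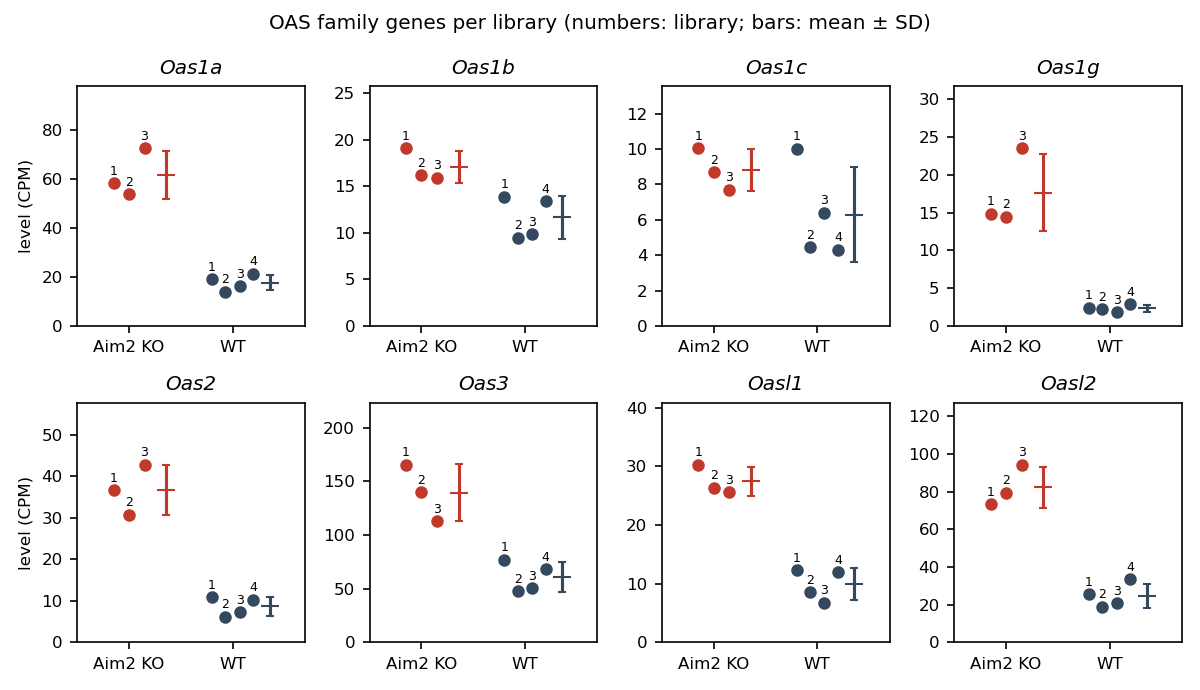
Level of each OAS family gene in CPM (linear axis from 0) in each Aim2 KO library and each WT library, with library numbers beside the points and the mean ± SD as bars. The 3 KO libraries lie above the 4 WT libraries for every gene except Oas1c, where WT library 1 reaches the KO range.

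The OAS1 enzymes Oas1g and Oas1a, both with synthetase activity in the mouse, were the members with the largest and the third largest fold change. Oas1g (ENSMUSG00000066861.14) was at 14.9, 14.5 and 23.5 CPM in the KO libraries, against 2.41, 2.23, 1.79 and 2.92 CPM in the WT libraries. Every KO library was far above every WT library, and KO library 3 was the highest. Its mean was 17.6 ± 5.12 CPM in KO and 2.34 ± 0.47 CPM in WT (SD, n = 3 and 4), a log2 fold change of 2.91 (adjusted p = 0.00422, SE 0.22). Oas1a (ENSMUSG00000052776.10) was at 58.3, 53.8 and 72.5 CPM in the KO libraries, against 19.1, 14.0, 16.3 and 21.2 CPM in the WT libraries. The groups did not overlap, and KO library 3 was again the highest. Its log2 fold change was 1.80 (adjusted p = 0.00665, SE 0.16).

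Oas1a and Oas1g share much of their sequence, so the split of reads between them rests on Salmon's model. Of the 31-base words in transcript Oas1a-201, 68.84% also occur in transcripts of other genes, nearly all in Oas1g, and Oas1a-201 and Oas1g-201 are 97.53% identical over 1860 aligned bases. Of the reads given to either gene, Oas1g took 20.3, 21.2 and 24.5% in the KO libraries, against 11.2, 13.8, 9.81 and 12.1% in the WT libraries. The Oas1g share was thus higher in every KO library than in every WT library, which was not tested. With Oas1a to Oas1h summed to 1 gene, a quantity that does not depend on the split within OAS1, the level was 103, 93.6 and 120.2 CPM in the KO libraries, against 45.7, 30.5, 34.7 and 42.3 CPM in the WT libraries. The sum rose with a log2 fold change of 1.46 (adjusted p = 0.00996, SE 0.15), and it passed with each library left out in turn.

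Oas1b, the gene behind natural resistance of mice to flaviviruses, which carries a premature stop in common laboratory strains, had a small fold change and did not pass. It was at 19.1, 16.2 and 15.9 CPM in the KO libraries, against 13.9, 9.50, 9.89 and 13.4 CPM in the WT libraries. The ranges did not overlap, but the gap between them was narrow. The log2 fold change was 0.55 (adjusted p = 0.218, SE 0.16). GENCODE classes the gene as a polymorphic pseudogene. Its main form, Oas1b-203, holds 3 bases that the form annotated as protein coding, Oas1b-201, leaves out. The stretch is shown because it tells the forms apart (GENCODE M21 transcripts, chr5:120817654-120817698, plus strand, in capitals the bases that Oas1b-201 lacks).
Oas1b-203: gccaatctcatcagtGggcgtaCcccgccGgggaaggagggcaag
Oas1b-201: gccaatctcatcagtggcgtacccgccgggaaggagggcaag
The reads of the gene went to Oas1b-203, with 370.2, 317 and 333 reads in the KO libraries, against 241, 178, 191 and 267 in the WT libraries, and to the short noncoding Oas1b-202. Oas1b-201 was given 0 reads in each of the 7 libraries, which allows up to 3 reads in each.

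Oas1c, an OAS1 copy that lacks synthetase activity, was at 10.04, 8.70 and 7.69 CPM in the KO libraries, against 10.03, 4.46, 6.397 and 4.31 CPM in the WT libraries. WT library 1 was as high as the highest KO library, and the other WT libraries were below the KO range. In TPM the Oas1c ranges did not overlap, at 4.06 to 6.03 TPM in KO and 1.98 to 3.86 TPM in WT. TPM carries no TMM factor, and that of WT library 1 was the lowest (0.918). On TPM the median log2 fold change over all genes was 0.10 to 0.13, and the share of all genes without overlap was not taken. In edgeR's quasi-likelihood test the log2 fold change of Oas1c was 0.49 (adjusted p = 0.581, SE 0.29). Oas1c and Oas1b, the divergent pair that share the interval printed above, were thus the members with the smallest fold changes. The 4 other OAS1 copies had too few reads to be tested. Summed over libraries, Oas1e had 36 reads in KO and 24 in WT, Oas1d had 2 in KO and 0 in WT, and Oas1f and Oas1h were at 0 in all 7 libraries, which allows up to 3 reads in each.

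Oas2 and Oas3, whose proteins carry several OAS domains in a row, both rose. Oas2 (ENSMUSG00000032690.16) was at 36.6, 30.7 and 42.8 CPM in the KO libraries, against 10.9, 6.20, 7.22 and 10.3 CPM in the WT libraries. The lowest KO library was well above the highest WT library. Its log2 fold change of 2.09 (adjusted p = 0.00877, SE 0.21) was second to that of Oas1g. Oas3 (ENSMUSG00000032661.9) was at 166, 140.0 and 113 CPM in the KO libraries, against 77.1, 48.0, 50.5 and 68.0 CPM in the WT libraries. The groups did not overlap, and here KO library 3 was the lowest of its group. The log2 fold change was 1.20 (adjusted p = 0.0422, SE 0.19). The call for Oas3 held in 2 of 7 fits with a library left out. Leaving out KO library 1 gave an adjusted p of 0.104, KO library 2 one of 0.155, and WT libraries 2, 3 and 4 ones of 0.114, 0.126 and 0.0825.

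The OASL pair rose as well. Oasl2 (ENSMUSG00000029561.17), which has synthetase activity in the mouse, was at 73.4, 79.5 and 94.4 CPM in the KO libraries, against 25.8, 18.9, 20.7 and 33.5 CPM in the WT libraries. The log2 fold change was 1.74 (adjusted p = 0.0111, SE 0.19), and it missed the threshold without KO library 2 (adjusted p = 0.0517). Oasl1 (ENSMUSG00000041827.15), which lacks that activity and holds back translation of Irf7 mRNA in the mouse, was at 30.3, 26.4 and 25.6 CPM in the KO libraries, against 12.3, 8.58, 6.79 and 12.0 CPM in the WT libraries. Both genes had every KO library above every WT library. For Oasl1 the log2 fold change was 1.47 (adjusted p = 0.0269, SE 0.20). Leaving out KO libraries 1 or 2 gave an adjusted p of 0.0682 or 0.0913, and leaving out WT library 2 one of 0.0988.

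**Figure D2:**
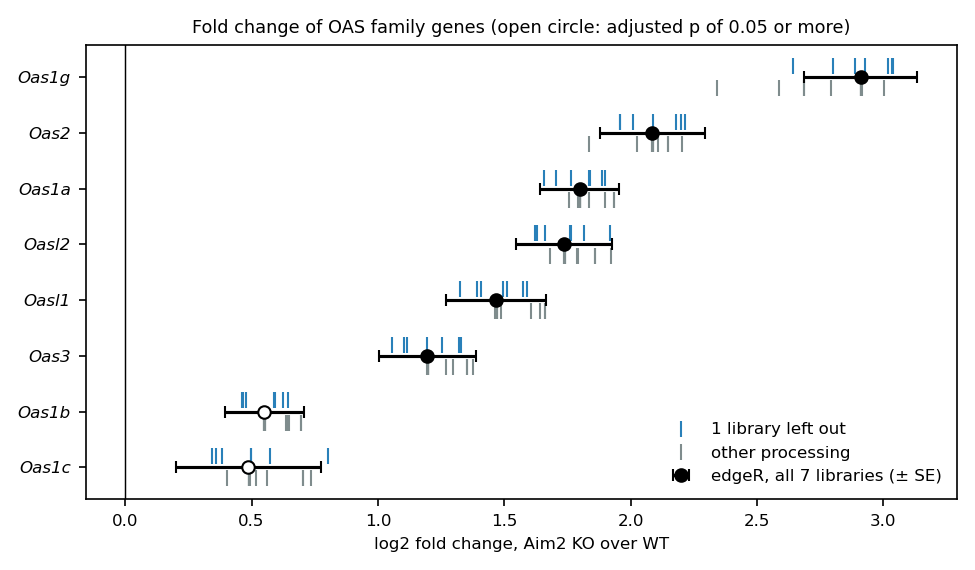
Log2 fold change of each OAS family gene, KO over WT, as a circle with its SE, filled where the adjusted p was under 0.05, with ticks above for fits that leave out 1 library and ticks below for other processing. Values run between 0.49 for Oas1c and 2.91 for Oas1g, and each tick lies above 0.

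The order of the KO libraries differed between members. In CPM, KO library 3, which held the most skeletal muscle signal, was the highest KO library for Oas1a, Oas1g, Oas2 and Oasl2. It was the lowest in CPM for Oas1b, Oas1c, Oas3 and Oasl1. TPM scales for transcript length but, unlike CPM here, carries no TMM factor. In TPM, KO library 3 was the highest for the same members but the lowest only for Oas3. In reads without scaling, KO library 2 was the lowest for Oas1b and Oasl1, and KO library 3 for Oas1c and Oas3. KO library 2 was the lowest in TPM for every other member. Without KO library 3 all 6 members that rose still passed. Among WT libraries, library 1 was the highest in CPM for 5 members and library 4 for 3. In TPM, WT library 4 was the highest for Oas1a, Oas1b, Oas1g, Oasl1 and Oasl2, library 1 for Oas2 and Oas3, and library 3 for Oas1c.

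Per unit of transcript length, measured in TPM, Oasl2, Oas1a and Oas3 were the most abundant members in KO marrow. Oasl2 was at 47.0 ± 6.99 TPM, Oas1a at 35.3 ± 7.03 TPM and Oas3 at 35.1 ± 7.80 TPM (SD, n = 3), with overlapping ranges. Oas1g at 17.7 ± 5.06 TPM came next, apart from these, and overlapped with Oasl1 at 14.7 ± 0.52 TPM. Oasl1 did not differ from Oas1b (12.9 ± 2.62 TPM), nor Oas1b from Oas2 (12.1 ± 3.32 TPM), beyond their ranges, while Oas1c stood apart below them at 4.85 ± 1.04 TPM. In WT marrow the ranges of Oas3 (13.6 ± 1.92 TPM), Oasl2 (13.2 ± 3.79 TPM), Oas1a (9.15 ± 1.54 TPM) and Oas1b (7.87 ± 0.76 TPM, SD, n = 4) overlapped from each to the next. A gap followed, and then Oasl1 at 4.75 ± 1.43 TPM, Oas1c at 3.00 ± 0.89 TPM, Oas1g at 2.64 ± 0.48 TPM and Oas2 at 2.63 ± 0.52 TPM, which again overlapped from each to the next. Oas1g thus had rank 4 in KO and rank 7 in WT, and Oas1b rank 6 in KO and rank 4 in WT.

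Summed over the 8 members, the family held 189, 154 and 196 TPM in the KO libraries, against 58.6, 47.8, 51.9 and 68.8 TPM in the WT libraries. Its makeup differed too. Oas1b made up 7.21 ± 1.22% of the family TPM in KO and 14.0 ± 1.15% in WT, and Oas1c 2.70 ± 0.46% in KO and 5.36 ± 1.75% in WT (SD, n = 3 and 4). Both shares were lower in every KO library than in every WT library. Oas1g made up 9.78 ± 1.85% in KO and 4.69 ± 0.90% in WT, and Oas1a, Oas1g and Oas2 had higher shares in every KO library than in every WT library. The shares of Oas3, Oasl1 and Oasl2 overlapped between the groups. A share can fall while the level does not, since all shares of a library sum to the whole, and these shares were not tested.

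**Figure D3:**
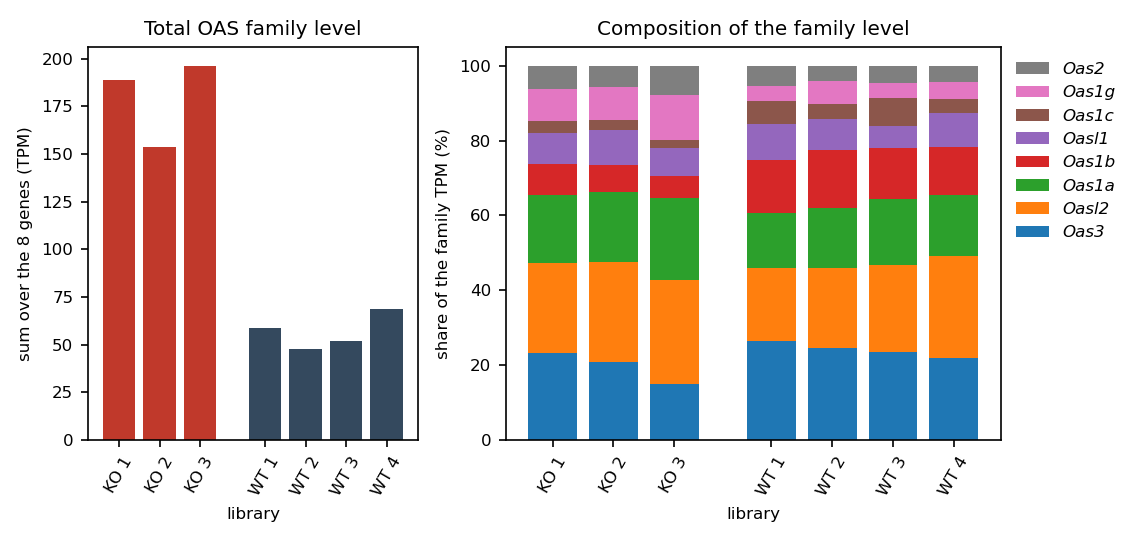
Total level of the 8 OAS family genes in TPM (left, bars from 0) and the share of each gene in that total in percent (right) for each Aim2 KO and WT library. The KO totals lie at 154 to 196 TPM and the WT totals at 47.8 to 68.8 TPM, and the band of Oas1b is narrower in each KO library than in each WT library.

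Of 33 transcripts listed for the members, 20 had enough reads to be tested, and the log2 fold change was above 0 for all 20, at a median of 1.62. The rest did not pass the filter on low counts, 2 of them at 0 in all libraries. Among these Oasl1-201 had estimated reads in 1 library of each genotype only, 112 in KO library 3 and 23.7 in WT library 2. Only Oas1a-201, the single transcript of Oas1a, passed when p-values were adjusted over all 34507 tested transcripts (log2 fold change 1.81, adjusted p = 0.0445, SE 0.18). Over all transcripts 0.0348% were called, and 0.0174% were called higher in KO. In estimated reads, not scaled to library size, the ranges of 18 member transcripts were higher in KO without overlap. Over all transcripts 4.79% were so in CPM, a scale on which the member count can differ. The lone call was lost with any library left out. DESeq2 called 12 member transcripts, but its share over all transcripts was not taken. Over all genes DESeq2 called 405, against 92 in edgeR's quasi-likelihood test.

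The coding form Oas1g-201 had 77.6, 81.7 and 187 reads in the KO libraries, against 4.25, 1.88, 11.1 and 10.2 reads in the WT libraries. KO and WT ranges did not overlap, and the log2 fold change was 4.00 (adjusted p = 0.136, SE 0.61). Oas1g-202, a form with a retained intron, had 103, 86.6 and 139 reads in the KO libraries, against 22.8, 25.4, 17.4 and 25.2 reads in the WT libraries (log2 fold change 2.20, adjusted p = 0.0702, SE 0.25). As a share of the gene, Oas1g-202 made up 32.4, 28.8 and 26.7% of Oas1g reads in the KO libraries, against 50.8, 54.9, 47.3 and 41.2% in the WT libraries. This share was lower in every KO library, by 19.3 percentage points on average. Among 17 shares compared it was the only one to reach 0.0571, the smallest p that an exact two-sided permutation test over the 35 splits of these libraries can give, and its Benjamini-Hochberg adjusted value was 0.729. Oas1g-203, a form marked for nonsense-mediated decay, had 137, 133 and 195 reads in the KO libraries, against 17.9, 18.9, 8.23 and 25.8 reads in the WT libraries (log2 fold change 3.04, adjusted p = 0.0797, SE 0.38). Since 65.38% of the words of Oas1g-201 and 65.46% of those of Oas1g-203 occur in other genes, but 28.96% of those of Oas1g-202, the estimates of these forms do not rest equally on the split from Oas1a.

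For Oas2, none of whose words occur in other genes, the coding form Oas2-201 had 516, 441 and 405 reads in the KO libraries, against 85.0, 47.2, 78.8 and 99.5 reads in the WT libraries. All KO libraries were well above the WT libraries (log2 fold change 2.47, adjusted p = 0.0591, SE 0.26). The retained-intron form Oas2-204 had 146, 114 and 369.9 reads in the KO libraries, against 93.3, 54.2, 49.3 and 65.1 reads in the WT libraries. KO library 3 stood out here, with 39.1% of its Oas2 reads in Oas2-204, against 18.7 and 17.8% in KO libraries 1 and 2, while the WT libraries held 46.0, 42.3, 33.1 and 30.3%. Oas3 was read almost wholly as the coding Oas3-201, at 96.2 ± 0.42% of the gene in KO and 96.5 ± 0.75% in WT. Oasl2 divided mainly between the coding Oasl2-201, with 37.6 ± 4.75% in KO and 32.6 ± 4.17% in WT, and a form marked for decay, with 53.3 ± 4.23% in KO and 57.9 ± 5.52% in WT (SD, n = 3 and 4). Summed over the family, coding forms held 76.9 ± 3.53% of the reads in KO and 76.2 ± 0.85% in WT.

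**Figure D4:**
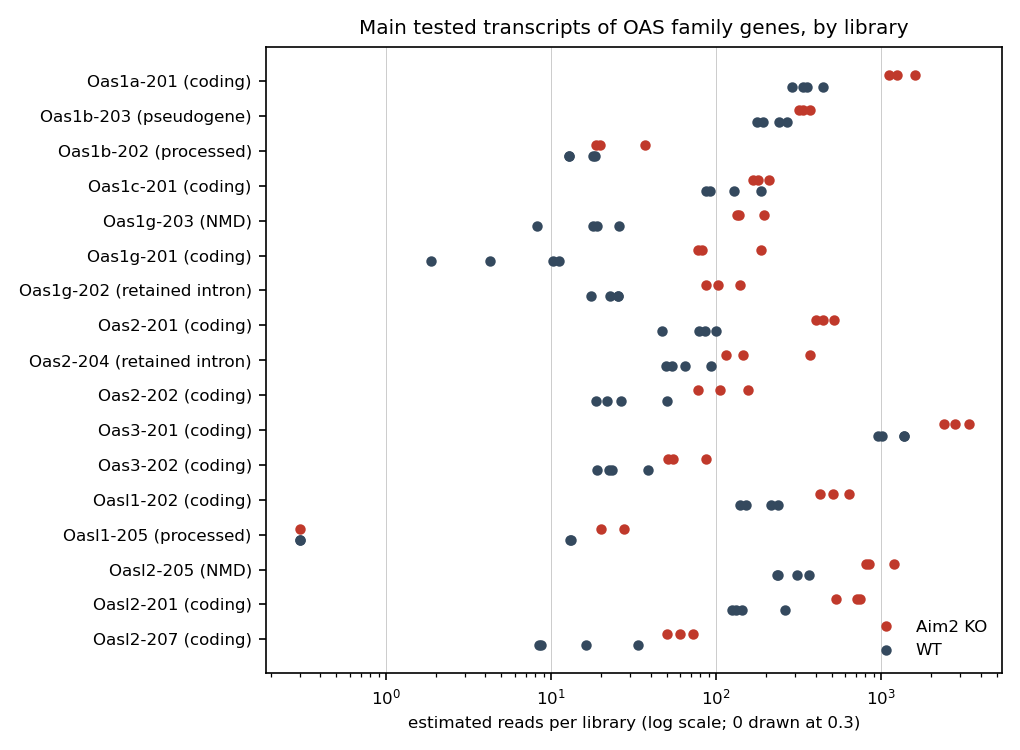
Estimated reads per library (log axis, 0 drawn at 0.3) of the 17 main tested transcripts of OAS family genes, with Aim2 KO libraries above WT libraries in each row. The KO points lie right of the WT points in each row except those of Oas1c-201 and the processed transcript of Oasl1, which overlap.

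Genes listed for the 2-5A branch downstream of the OAS enzymes did not pass the test. Of the 3 reported, 0 passed in edgeR's quasi-likelihood test, and 0 had an unadjusted p under 0.05 or were called by DESeq2 or voom, with a median log2 fold change of -0.03. Pde12, which degrades 2-5A, was at 26.8, 24.9 and 23.5 CPM in the KO libraries, against 23.9, 23.9, 24.2 and 24.8 CPM in the WT libraries. The KO libraries spread around the WT libraries, with a log2 fold change of 0.05 (adjusted p = 0.856, SE 0.07) that turned to -0.0011 without KO library 1. Akap7, whose central domain can also degrade 2-5A, was at 19.6, 17.2 and 13.8 CPM in the KO libraries, against 24.3, 20.5, 17.5 and 17.1 CPM in the WT libraries. The ranges overlapped, with a log2 fold change of -0.24 (adjusted p = 0.634, SE 0.16). Abce1, an ATPase that recycles ribosomes, had a log2 fold change of -0.03, which was above 0 under voom, the effective length offset, TPM values and without WT library 1.

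Interferon genes themselves were at or near 0, while 3 genes of interferon signalling rose. Of 10 listed interferon genes 0 had enough reads to be tested, and 8 were at 0 in all libraries. Summed over libraries, Ifnb1 had 1 read in KO and 0 in WT, and Ifng had 12 reads in each group. Of 14 interferon receptor and signalling genes reported 3 rose and 0 fell, with a median log2 fold change of 0.15, and with each library left out in turn 0 to 2 passed. These were Irf7, a transcription factor of the interferon response (log2 fold change 1.21, adjusted p = 0.0327, SE 0.18), and the ISRE-binding factors Stat2 (log2 fold change 0.45, adjusted p = 0.0248, SE 0.06) and Irf9 (log2 fold change 0.63, adjusted p = 0.0451, SE 0.10). Of 5 brakes on interferon signalling 1 rose, Usp18, which blocks the type I interferon receptor, with a mean of 28.0 ± 0.95 CPM in KO, against 11.4 ± 1.48 CPM in WT (SD, n = 3 and 4; log2 fold change 1.30, adjusted p = 0.00561, SE 0.11). Socs3 and Socs1 did not pass in edgeR's quasi-likelihood test, at log2 fold changes of 0.44 (adjusted p = 0.088) and 0.26 (adjusted p = 0.668), while Socs3 was called higher by DESeq2 (adjusted p = 0.0139) and voom (adjusted p = 0.0302).

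Most other listed sensors and effectors of double-stranded RNA were higher as well. Of 8 tested, 6 rose and 0 fell, with a median log2 fold change of 0.69, and with each library left out in turn 2 to 4 passed. Zbp1, a sensor of Z-form nucleic acid, was at 19.3, 21.3 and 26.4 CPM in the KO libraries, against 6.75, 5.82, 7.997 and 8.997 CPM in the WT libraries (log2 fold change 1.59, adjusted p = 0.0102, SE 0.17). The others were the RIG-I-like helicases Dhx58 (0.98), Ifih1 (0.74) and Ddx58 (0.64), the kinase Eif2ak2 (0.78), which halts translation, and the editing enzyme Adar (0.58). Adar did not pass in any fit with a library left out, and Ifih1, Ddx58 and Eif2ak2 passed in 1 of 7 each. Tlr3 and Mavs did not pass, with log2 fold changes of -0.07 and -0.11. The differences between these genes and the OAS members were not tested.

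The 10 genes outside the family whose level over the 7 libraries was most like that of the members were Xaf1, Irf7, Ifit1, Ifi44, Usp18, Ifit3, Adar, Rtp4, Stat2 and Ifi27. Their Pearson correlation with the mean member profile, on log2(CPM + 0.5) centred per gene, ran from 0.994 for Xaf1 to 0.982 for Ifi27, over 7 libraries. Both genotypes enter these profiles, so a gene that differs between them can score high, and 125 of 13202 genes were above 0.9. Among the members the correlation was highest for Oas2 (0.997) and lowest for Oas1c (0.653). Each member is itself part of the mean profile, which raises its value, so these are not comparable with those of outside genes. Xaf1 was at 21.1, 19.8 and 21.7 CPM in the KO libraries, against 11.5, 8.82, 8.72 and 9.76 CPM in the WT libraries. WT library 1 was thus the highest in WT, as for most members in CPM.

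Protein-coding genes within 500 kb of the family did not pass the test. Of 14 tested neighbours of the OAS cluster 0 passed in edgeR's quasi-likelihood test, with a median log2 fold change of -0.09, and of 24 tested neighbours of the OASL pair 0 passed, with a median of -0.10. At an unadjusted p under 0.05 there were 1 higher and 1 lower near the cluster and 1 lower near the pair. Over all genes tested, 1631 of 14238 were under that limit, in either direction. DESeq2 called 1 higher and 1 lower near the cluster and 0 near the pair, and voom 1 lower near the cluster and 0 near the pair. Dtx1, the nearest tested gene beyond Oas2 and a regulator of Notch signalling, was at 2.91, 0.86 and 2.44 CPM in the KO libraries, against 4.66, 5.77, 6.397 and 7.27 CPM in the WT libraries. It did not overlap between the groups, with the KO libraries below, at a log2 fold change of -1.54 (adjusted p = 0.139, SE 0.36). For Trafd1, which is itself inducible by interferon, the log2 fold change was 0.35 (adjusted p = 0.0943, SE 0.07).

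**Figure D5:**
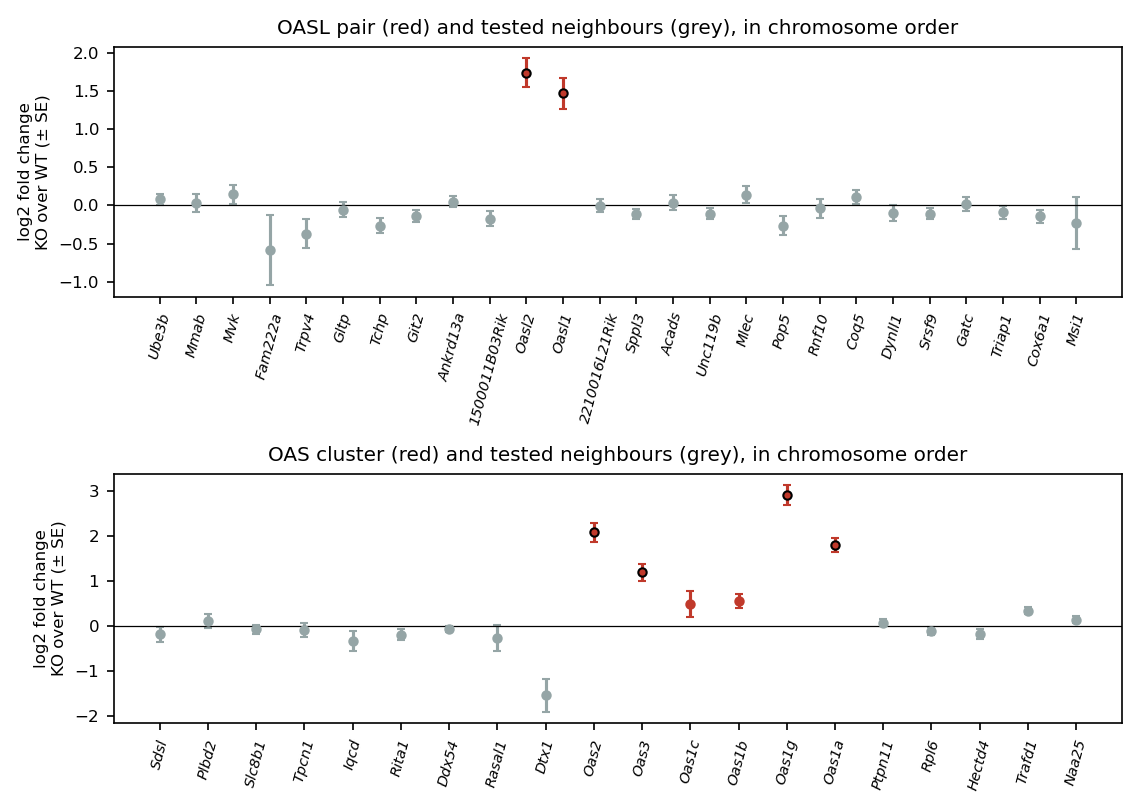
Log2 fold change, KO over WT, with its SE for the OASL pair (top, red) and the OAS cluster (bottom, red) and the tested genes within 500 kb of each (grey), in chromosome order, with a black ring where the adjusted p was under 0.05. The 6 ringed genes are all members, and the grey points furthest from 0 are Dtx1 at -1.54 and Fam222a at -0.59, neither of which passed.

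Summed levels of the markers of some marrow cells differed between the genotypes beside the family. Over all genes tested in edgeR's quasi-likelihood test, 1631 of 14238 had an unadjusted p under 0.05, in either direction. Counts of markers under that limit are to be read beside this share. B lineage markers summed to 147 to 243 CPM in KO and 326 to 516 CPM in WT. Of these 8 markers 0 passed in edgeR's quasi-likelihood test, 7 were lower at an unadjusted p under 0.05, DESeq2 called 6 lower and voom 5 lower. Plasma cell markers summed to 687 to 853 CPM in KO and 426 to 649 CPM in WT, with 0 of 6 past the test, 5 higher at an unadjusted p under 0.05, and 2 called higher by DESeq2. T cell markers summed to 44.6 to 58.2 CPM in KO and 59.9 to 79.9 CPM in WT, with 0 of 6 past the test, 3 lower at an unadjusted p under 0.05 and 2 called lower by DESeq2. Monocyte and macrophage markers overlapped, at 1275 to 1438 CPM in KO and 834 to 1330 CPM in WT, with 0 of 7 past the test and 2 higher at an unadjusted p under 0.05. Markers of plasmacytoid dendritic cells, a main source of type I interferon, overlapped at 101 to 154 CPM in KO and 99.9 to 118 CPM in WT, with 0 of 6 past the test and 1 higher at an unadjusted p under 0.05. Of 5 tested conventional dendritic cell markers 1 was called, Cd209a, which fell (log2 fold change -1.35, adjusted p = 0.0206, SE 0.17), and with each library left out in turn 0 to 1 passed. No marker of these lists was at 0 in a whole group. Their part in the higher level of the OAS family was not tested.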

How the data were processed

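Bone marrow RNA of 3 Aim2 KO and 4 WT libraries was analysed. Reads were checked with FastQC 0.11.9 and quantified with Salmon 1.7.0, and build GRCm38.p6 and DESeq2 are named, per the submitters' processing notes. Salmon's options and annotation release are not given in the sources used here. For each library and 116546 transcripts the authors deposited Salmon's estimated count, its TPM value, which is scaled for effective length and library total, and other values such as that effective length in bases. Library preparation kept strand, per the labels' protocols. Salmon divides reads that fit several transcripts by a model, so values of close paralogs and isoforms are estimates. No gene among those quantified overlaps a member, while GENCODE M21 places 1 other gene on the opposite strand of each of Oas1c, Oas2 and Oasl1.

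Transcripts were joined to GENCODE M21 genes by identifier without version. The 569 without a gene held at most 0.0662% of the reads of a library and were left out, which gave 35498 genes. Gene values are rounded sums of estimated counts. After edgeR's filterByExpr, 14238 genes were scaled by TMM (factors 0.918 to 1.06) and tested for genotype in edgeR 4.0.16 under R 4.3.3 (quasi-likelihood test, Benjamini-Hochberg adjustment, no covariates). Transcripts were tested in the same way. Fold changes are KO over WT, and SE is the absolute log2 fold change over the root of the test's F value. The steps were tested on simulated data. Libraries of a group differed by more than sampling noise in every pair (chi-square per degree of freedom 9.14 to 55.7). Allowances of up to 3 reads at a count of 0 cover counting error only.

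Named are all members and, for each, the transcript with the most reads and any with at least 10% of the TPM of its gene in either group, Aim2, every gene of a list past the threshold and at most 3 per list by p, and the 10 genes most like the members. Markers of cell types are given as lists, and Cd209a, the only marker that passed, was named after its values were seen. The members and lists were chosen with earlier results of these data known. Values of some listed genes are not reported here.

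Alternatives covered scaling (RLE, or TMM without haemoglobin, immunoglobulin and mitochondrial genes), the test (DESeq2 1.42.0, voom with sample weights in limma 3.58.1), filters, thresholds, an effective length offset, TPM values on a log2 scale with 0.1 or 1 added, summed OAS1 genes, a block for the sample number, and each library left out.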

Additional observations from a re-analysis of the deposited data

Results flagged for a closer look

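Among 88 groups of 4 WT values examined for the members, their transcripts and the other named genes, 2 held a library far from the other 3, by a gap to the nearest of them above the 95% limit of Dixon's test, which chance gives in about 1 of 20 groups. The KO groups, with 3 libraries, were not examined. The coding transcript Oasl2-201 had 261.8 estimated reads in WT library 4, against 124.3, 131.6 and 143.7 in the other WT libraries, with a gap of 0.859 of the range. WT library 4 also held the highest Oasl2 level of the WT libraries. The decay-marked transcript Oas1g-203 made up 22.44% of Oas1g reads in WT library 3, against 39.8, 40.99 and 42.15% in the other WT libraries, with a gap of 0.881 of the range. In that library the gene had 37 reads in all.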

How the results depend on the processing

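Over 18 alternatives the log2 fold change of each member kept its sign, and Oas1a, Oas1g, Oas2 and the OAS1 sum passed in all 18, the sum between 1.36 and 1.63. A total of 6 members passed by RLE scaling, scaling without haemoglobin, immunoglobulin and mitochondrial genes, DESeq2, voom, either filter and TPM with the filter, 5 by TPM without it, 4 with the effective length offset and 3 at an adjusted p under 0.01. With each library left out in turn the count was 3 to 6, lowest without KO library 2. Among listed genes outside the family, Ddx58 and Eif2ak2 each passed in 3 and Irf9 in 5 of the 11 alternatives other than those with a library left out. At the transcript level 1 call became 12 with DESeq2, 6 with limma on log2(TPM + 0.1), 2 without the filter and 0 with any library left out. The cause was not tested, and shares over all transcripts were not taken under these alternatives. With each library left out the log2 fold change of Pde12 lay between -0.00111 and 0.0891, lowest without KO library 1, and that of Abce1 between -0.0464 and 0.00923, highest without WT library 1. Abce1 was at 0.00837 with voom, 0.000361 with the effective length offset, and 0.148 (0.1 added, with or without the filter) or 0.144 (1 added) on TPM. The sample numbers shared by KO and WT did not pair the libraries, with correlations of deviations of 0.1237, -0.0406 and -0.2712 for numbers 1 to 3, and not every library correlated best with its own number. With the replicate block 6 members, 0 member transcripts and 21 of all genes passed, against 92 genes without it. Sample number 4 occurs only in WT, so in the block fit WT library 4 adds nothing to the contrast of genotypes. Of all genes, DESeq2 called 405, voom 305 and limma on TPM 28 to 50, and on TPM the all-gene median was at 0.10 to 0.13 (log2). Depth limits Oas1g in WT (37 to 61 reads per library), its transcripts, and the interferon genes and other OAS1 copies left untested.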
